A study of Homo sapiens with 9 samples.

Results

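The genes described here are 40 genes of the ATF4 response, amino acid supply and one-carbon metabolism, listed by name, with no measured value in the rule but with earlier results of these data known. All 40 were among the 26816 genes of the count table, and 39 were among the 15725 genes with enough reads to test. They were followed in OCI-Ly1 cells, a human B-cell lymphoma line, in 9 poly(A) RNA libraries. Cells of 3 libraries carried a non-targeting control shRNA (shSCR), and cells of 3 libraries each carried 1 of 2 shRNAs against LSD1, called sh68 and sh72 in the count table. The shRNAs were delivered in the pLKO1 vector, and all cells were selected with puromycin and grown in IMDM with 10% FBS and antibiotics. The labels call the replicates biological triplicates but do not say whether they were separate transductions, so the spread given here is the spread between these libraries. They also give neither the time after transduction nor which of the numbered sample titles is sh68 and which is sh72.

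LSD1, encoded by KDM1A, is a demethylase that removes methyl groups from histone H3 lysine 4 as part of repressor complexes. ATF4 is a transcription factor whose protein is made when the translation factor eIF2 is phosphorylated, for example when amino acids run short or unfolded protein builds up. It is controlled largely at translation, so the level of ATF4 mRNA is not a measure of ATF4 protein. Its targets import amino acids, make serine, asparagine and proline, and supply one-carbon units from serine to folate for nucleotide synthesis. In lymphocytes these pathways feed cell growth.

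ATF4 binds DNA with C/EBP partners at a composite element whose core is commonly written TGATGNAA. Upstream sequence in RefSeq on GRCh38.p14 was available for 32 of the 40 genes, and the core occurred on either strand in the 250 bases before an annotated start in 8 of them (25.0%). The same was true of 3.89% of 27305 genes with such sequence, and of 3.14% of all 35116 promoters. The list was drawn up partly from known ATF4 targets, so this share is not independent of how the genes were chosen. The 8 stretches are shown because they hold the core in question. Each is 30 bases, 5′ to 3′ on the strand of the gene, with the core in capitals. TTGCATCA is the core read on the opposite strand.

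ATF3: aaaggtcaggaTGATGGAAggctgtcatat
CEBPG: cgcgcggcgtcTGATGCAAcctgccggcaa
CHAC1: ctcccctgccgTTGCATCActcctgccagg
MTHFD1L: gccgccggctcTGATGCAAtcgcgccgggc
ASNS: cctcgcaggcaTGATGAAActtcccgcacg
GOT1: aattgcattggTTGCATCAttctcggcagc
BCAT1: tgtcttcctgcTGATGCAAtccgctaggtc
SLC1A5: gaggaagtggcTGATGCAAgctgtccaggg

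The stretches lie at chr1:212565205-212565234 for ATF3, chr19:33374060-33374089 for CEBPG, chr15:40953251-40953280 for CHAC1 and chr6:150866346-150866375 for MTHFD1L, all on the plus strand. On the minus strand they lie at chr7:97872458-97872487 for ASNS, chr10:99430804-99430833 for GOT1, chr12:24949131-24949160 for BCAT1 and chr19:46784893-46784922 for SLC1A5. The stretches of ATF3 and CEBPG overlap no annotated exon, and the other 6 overlap an annotated exon of the same gene. Those of CEBPG, MTHFD1L, ASNS, BCAT1 and SLC1A5 lie inside the RefSeq span of the gene, before a start annotated within it. A match to these letters is a description of the sequence and does not show binding.

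Levels are given as CPM, the reads of a gene scaled to a common library size. KDM1A, the target of both shRNAs, had 121 ± 1.44 CPM (mean ± SD, n = 3) in shSCR, 24.4 ± 1.26 with sh68 and 20.9 ± 1.82 with sh72, which is 20.2% and 17.2% of control. In edgeR its adjusted p was 2.76e-20 with sh68 and 5.15e-20 with sh72. Each library had between 29506767 and 35270849 reads assigned to genes. The summed level of 6 B-cell markers was 4157 to 4295 CPM in shSCR, 4125 to 4249 with sh68 and 2606 to 2773 with sh72. The 4 germinal-centre markers summed to 1402 to 1462, 1797 to 1838 and 1255 to 1339 CPM. All 4 T-cell and all 4 monocyte markers stayed under 1 CPM in every library, as did 3 of 4 fibroblast and 3 of 4 epithelial markers. The exceptions were EPCAM, at 16.7 ± 1.48 CPM in shSCR, 8.14 ± 0.73 with sh68 and 15.8 ± 0.3 with sh72, and COL1A1, at 0.36 ± 0.0862, 1.27 ± 0.149 and 1.8 ± 0.762 CPM. The part of these marker differences in the values below was not tested.

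The 40 genes did not move as a block. With sh68, 14 of the 39 tested genes rose and 12 fell, against 27.4% and 28.1% of all tested genes, with a median log2 fold change of 0.03 against -0.01 for all tested genes. With sh72, 23 rose and 4 fell, which is 59.0% and 10.3% of the 39, against 24.7% and 26.3% of all tested genes. The median with sh72 was 0.20, against -0.01 for all tested genes. The 4 that fell became 2 without shSCR replicate 1 or 2 or sh72 replicate 2 or 3. A gene is said to rise or fall when its adjusted p in edgeR was below 0.05. Since 55.5% of all genes passed with sh68 and 51.0% with sh72, passing alone says little about a gene, and sizes are given throughout. Both comparisons use the same 3 control libraries.

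**Figure D1:**
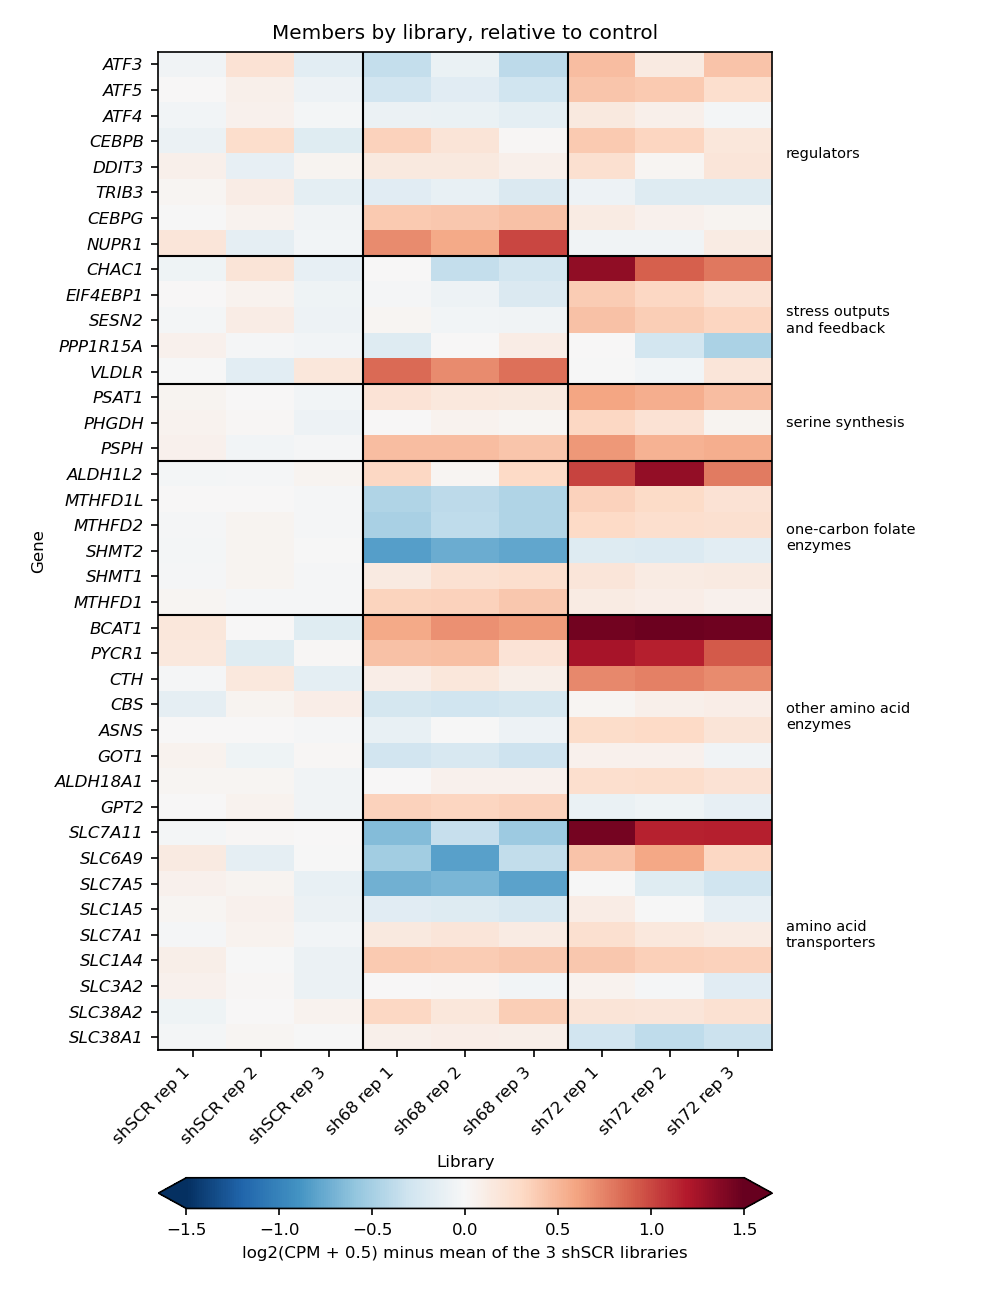
Level of each of the 39 tested genes in each library, as log2(CPM + 0.5) minus the mean of the 3 shSCR libraries, with rows grouped by role and columns by shRNA; colours saturate at 1.5. The sh72 columns are mostly red, with CHAC1, ALDH1L2, BCAT1, PYCR1 and SLC7A11 the darkest, while the sh68 columns mix red and blue.

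Each shRNA had its own pattern over these genes. BCAT1, MTHFD1, PSAT1, PSPH, PYCR1, SHMT1, SLC1A4, SLC38A2 and SLC7A1 rose with both, 9 of 39, where 12.5% of all tested genes did so. SHMT2, SLC7A5 and TRIB3 fell with both, 3 of 39, against 13.0% of all tested genes. A further 6 moved in opposite directions, against 7.83% of all tested genes. ATF5, MTHFD1L, MTHFD2, SLC6A9 and SLC7A11 fell with sh68 and rose with sh72, 5 of 39 against 3.5% of all tested genes, while SLC38A1 did the reverse. Of the remaining genes, 9 passed with sh72 alone, all of them higher, and 8 passed with sh68 alone, 4 higher and 4 lower. CEBPB, DDIT3, PPP1R15A and SLC3A2 passed with neither. All 3 sh68 libraries lay above all controls for 15 genes and below for 11, and 62.6% of all tested genes were separated in this way. For sh72 this held for 21 and 3 genes, against 56.4% of all tested genes.

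ATF4 itself, on chromosome 22 at 39520559 to 39522686, was 311, 334 and 314 CPM in the shSCR libraries, 302, 299 and 288 with sh68, and 355, 338 and 313 with sh72. All 3 sh68 libraries lay below the controls, and the sh72 libraries overlapped them. The log2 fold change was -0.11 ± 0.0427 (SE) for sh68, with an adjusted p of 0.0315, and 0.07 ± 0.0426 for sh72, with an adjusted p of 0.183. The fall with sh68 rested on a narrow margin. It missed the threshold when any 1 of the shSCR or sh68 libraries or sh72 replicate 2 was left out, at -0.12 to -0.07 and adjusted p of 0.0507 to 0.229. With sh72 the gene passed without sh72 replicate 3, at 0.13. Between the shRNAs, ATF4 was higher with sh72 by 0.18 ± 0.0426 (adjusted p = 0.00091). An exact two-sided permutation test over 3 against 3 libraries gave p = 0.1 for sh68, the smallest it can give, and 0.3 for sh72.

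The other regulators split by shRNA. CEBPG, a C/EBP partner of ATF4, was 43.8, 45.7 and 42.5 CPM in shSCR, 58.1, 58.6 and 59.9 with sh68, and 47.9, 46.1 and 45.4 with sh72. It rose by 0.42 ± 0.0465 on the log2 scale with sh68 (adjusted p = 5.05e-08), with no overlap, and was 0.08 ± 0.0474 with sh72 (adjusted p = 0.171). ATF5, a related factor that is itself an ATF4 target, went the other way with sh68. Its levels were 216, 227 and 203 CPM in shSCR, 176, 191 and 174 with sh68, and 288, 283 and 256 with sh72. The 3 groups did not overlap, with log2 fold changes of -0.25 ± 0.0477 (adjusted p = 9.26e-05) and 0.36 ± 0.0473 (adjusted p = 8.92e-07). ATF5 shares exon sequence with NUP62 on the other strand, and NUP62 was 0.03 with sh68 and rose by 0.28 with sh72, so with the strand setting unknown some of these reads cannot be told apart.

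The low-level regulators gave less certain values. ATF3, a stress-induced repressor, was 1.79, 2.25 and 1.63 CPM in shSCR, 1.35, 1.71 and 1.31 with sh68, and 2.77, 2.12 and 2.69 with sh72. It rose by 0.42 ± 0.174 with sh72 (adjusted p = 0.0454), but missed the threshold without shSCR replicate 1 or 3 or sh72 replicate 1 or 3, at 0.34 to 0.40. NUPR1, a small stress-induced nuclear protein, had 4, 0 and 1 reads in shSCR, 13, 11 and 21 with sh68, and 1, 1 and 3 with sh72. Only the sh68 libraries had more than 4 reads, and the log2 fold change of 2.93 ± 0.595 (adjusted p = 0.000199) became 4.44 without shSCR replicate 1. Without sh68 replicate 3, which held 21 of its 45 sh68 reads, NUPR1 had too few reads to be tested. TRIB3, a pseudokinase that feeds back on ATF4, fell with both shRNAs by small amounts, -0.17 ± 0.0593 and -0.16 ± 0.0596, and its libraries overlapped the controls in both cases. Its fall with sh68 missed the threshold without shSCR replicate 1 or 2 or sh68 replicate 1 or 3, at -0.17 to -0.11. Its fall with sh72 did so without shSCR replicate 1 or 2, any sh68 library, or sh72 replicate 2 or 3, at -0.14 to -0.09.

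DDIT3, which encodes the pro-apoptotic factor CHOP, and CEBPB passed with neither shRNA. DDIT3 was 15.2, 13.3 and 14.9 CPM in shSCR, 16, 16.1 and 15.3 with sh68, and 17.2, 14.7 and 16.4 with sh72. Exons of DDIT3 overlap those of MARS on the other strand, which was 203 CPM in shSCR, fell by 0.28 with sh68 and rose by 0.16 with sh72, so with the strand setting unknown the reads of DDIT3 are uncertain. With sh72 DDIT3 passed without sh72 replicate 2, at 0.23, and CEBPB passed without shSCR replicate 2, at 0.54. Exons of CEBPB overlap those of CEBPB-AS1 on the other strand, which rose by 1.90 with sh72, from 0.157 to 0.616 CPM. CEBPB itself had a mean of 1.93 CPM in shSCR and 2.45 with sh72, so its reads are uncertain in the same way.

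**Figure D2:**
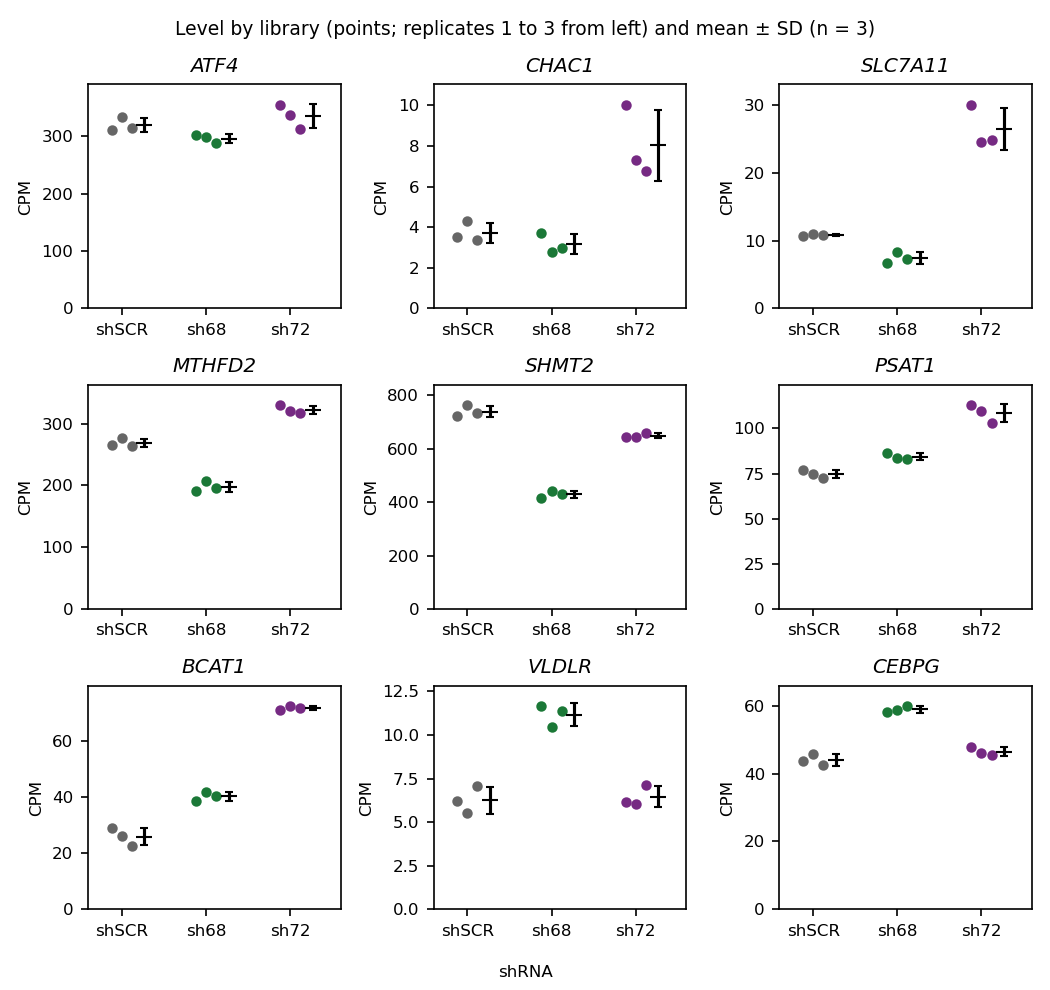
CPM of 9 genes by library (points) with the mean ± SD of the 3 libraries beside them, for shSCR, sh68 and sh72. SLC7A11 and MTHFD2 lie below control with sh68 and above it with sh72, BCAT1 and PSAT1 step up from control to sh68 to sh72, and VLDLR and CEBPG are high with sh68 alone.

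Among the stress outputs, CHAC1 rose with sh72 and VLDLR with sh68. CHAC1, an enzyme that degrades glutathione, was 3.53, 4.29 and 3.35 CPM in shSCR, 3.72, 2.79 and 2.98 with sh68, and 10.0, 7.30 and 6.76 with sh72. All sh72 libraries were above all others, and CHAC1 rose 2.17-fold with sh72 (log2 1.12 ± 0.144, adjusted p = 6.25e-07) while sh68 gave -0.23 ± 0.164 (adjusted p = 0.235). VLDLR, a lipoprotein receptor induced by ATF4, was 6.22, 5.51 and 7.05 CPM in shSCR, 11.7, 10.5 and 11.4 with sh68, and 6.18, 6.03 and 7.15 with sh72. It rose 1.78-fold with sh68 (log2 0.83 ± 0.0973, adjusted p = 1.24e-07) and was 0.04 ± 0.106 with sh72. SESN2, a leucine sensor that restrains mTORC1, rose with sh72 by 0.39 ± 0.0567 and was -0.02 ± 0.0578 with sh68. EIF4EBP1, a repressor of cap-dependent translation, rose with sh72 by 0.31 ± 0.0579 and was -0.11 ± 0.059 with sh68. PPP1R15A, the eIF2 phosphatase subunit GADD34, passed with neither, but its -0.24 with sh72 became -0.40 and passed without sh72 replicate 1. STC2, a secreted glycoprotein, had a single read, in sh68 replicate 2, and was not tested.

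All 3 enzymes of serine synthesis were higher with sh72. PSAT1, the aminotransferase of the pathway, was 76.9, 74.9 and 72.6 CPM in shSCR, 86.4, 83.8 and 83 with sh68, and 113, 109 and 103 with sh72. The 3 groups did not overlap, with log2 fold changes of 0.17 ± 0.0434 (adjusted p = 0.00154) and 0.54 ± 0.043 (adjusted p = 3.06e-10). PSPH, the phosphatase that completes serine, rose by 0.45 ± 0.0474 with sh68 and 0.58 ± 0.0473 with sh72, with every LSD1 shRNA library above the controls. PHGDH, which begins the pathway, was 149, 146 and 136 CPM in shSCR, 145, 149 and 147 with sh68, and 179, 167 and 148 with sh72. It rose by 0.20 ± 0.0507 with sh72 (adjusted p = 0.0022), though its libraries overlapped the controls, and was 0.03 ± 0.0507 with sh68. The excess of sh72 over sh68 was 0.36 for PSAT1, 0.13 for PSPH and 0.17 for PHGDH. It missed the threshold for PSPH without sh68 replicate 3 (0.11) or sh72 replicate 1 (0.09), and for PHGDH without sh72 replicate 1 (0.10).

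Of the 6 one-carbon enzymes, SHMT1 and MTHFD1 rose and SHMT2, MTHFD2 and MTHFD1L fell with sh68, while with sh72 5 rose and SHMT2 fell. SHMT2, which releases a one-carbon unit from serine in mitochondria, was 722, 763 and 734 CPM in shSCR, 416, 440 and 430 with sh68, and 644, 643 and 661 with sh72. The groups did not overlap, and it fell 1.72-fold with sh68 (log2 -0.79 ± 0.0361, adjusted p = 6.99e-15) and 1.14-fold with sh72 (log2 -0.19 ± 0.0358, adjusted p = 0.000109). MTHFD2, the mitochondrial dehydrogenase of the next step, was 265, 277 and 264 CPM in shSCR, 191, 207 and 196 with sh68, and 330, 320 and 317 with sh72. MTHFD1L, which frees formate for export, was 72.2, 72.3 and 71.3 CPM, then 52.6, 54.5 and 52.6, then 91.8, 88.1 and 83.7. Both fell with sh68 (-0.44 ± 0.0381 and -0.43 ± 0.0444) and rose with sh72 (0.26 ± 0.0377 and 0.29 ± 0.0433), with no overlap between any of the groups.

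SHMT1 and MTHFD1, which work in the cytosol, rose with sh68 by 0.21 ± 0.0446 and 0.36 ± 0.0363, and with sh72 by 0.15 ± 0.0449 and 0.10 ± 0.0365. MTHFD1 missed the threshold with sh72 without shSCR replicate 2 or 3 or sh72 replicate 1, at 0.08 to 0.10. ALDH1L2, a mitochondrial enzyme that oxidises formyl-folate, was scarce, with 10, 9 and 11 reads in shSCR, 17, 12 and 18 with sh68, and 40, 49 and 28 with sh72. All sh72 libraries were above all others, and it rose 3.71-fold with sh72 (log2 1.89 ± 0.300, adjusted p = 1.16e-05), against 0.49 ± 0.356 with sh68 (adjusted p = 0.251). Exons of SHMT2 overlap those of NDUFA4L2 on the other strand, which fell by 0.83 with sh68 and 0.70 with sh72. Exons of MTHFD2 overlap those of SLC4A5, also on the other strand, which fell by 0.49 with sh68 and was 0.11 with sh72. At 102 and 19.2 CPM in shSCR, these neighbours were below SHMT2 and MTHFD2. With sh72, however, NDUFA4L2 was 63.2 CPM, while the mean of SHMT2 went from 740 CPM in shSCR to 649. Exons of SHMT1 overlap those of SMCR8, and exons of MTHFD1 those of ZBTB25, again on the other strand. SMCR8 was 105 CPM in shSCR, above SHMT1 at 62.4, and was -0.08 with sh68 and 0.02 with sh72. ZBTB25 was 27.7 CPM in shSCR and rose by 0.15 and 0.26. With the strand setting unknown, some reads of SHMT2, MTHFD2, SHMT1 and MTHFD1 cannot be told apart from those of these neighbours. For SHMT2 this bears most on its small fall with sh72.

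BCAT1, PYCR1 and CTH gave the largest changes among the other enzymes. BCAT1, the cytosolic branched-chain aminotransferase, was 29, 26 and 22.7 CPM in shSCR, 38.5, 41.9 and 40.5 with sh68, and 71.1, 72.5 and 71.7 with sh72. The groups did not overlap, and BCAT1 rose 1.55-fold with sh68 (log2 0.64 ± 0.064, adjusted p = 1.12e-08) and 2.77-fold with sh72 (log2 1.47 ± 0.0621, adjusted p = 3.39e-15). PYCR1, the mitochondrial enzyme that completes proline, was 8.94, 6.92 and 8.07 CPM in shSCR, 11, 11.1 and 9.26 with sh68, and 19.4, 18.4 and 15.4 with sh72. It too rose with both, by 0.38 ± 0.105 and 1.15 ± 0.099, without overlap. CTH, which makes cysteine from cystathionine, was 15.8, 17.9 and 14.3 CPM in shSCR, 17.1, 17.9 and 17.0 with sh68, and 26.5, 27.2 and 26.4 with sh72. It rose by 0.74 ± 0.0689 with sh72 (adjusted p = 3.45e-09) and was 0.12 ± 0.0715 with sh68, where it passed only without shSCR replicate 2, at 0.21.

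ASNS, which makes asparagine, and ALDH18A1, which begins proline synthesis, rose with sh72 alone, by 0.26 ± 0.0388 and 0.25 ± 0.0414. The aminotransferases went their own ways. GPT2 rose with sh68 by 0.34 ± 0.0408 and was -0.09 ± 0.0416 with sh72, passing there without shSCR replicate 3 at -0.11. GOT1 fell with sh68 by 0.29 on the log2 scale and was 0.03 with sh72. CBS, which makes cystathionine, had -0.30 ± 0.101 with sh68 (adjusted p = 0.0142), and missed the threshold without shSCR replicate 2 (-0.28) or 3 (-0.24). CBS has a near-identical copy, CBSL, with 29 reads over all libraries against 1708 for CBS, so its counts are uncertain.

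The cystine importer SLC7A11, on chromosome 4 at 138164097 to 138242349, had the largest difference between the shRNAs of the 9 transporters. It was 10.6, 10.9 and 10.8 CPM in shSCR, 6.69, 8.38 and 7.21 with sh68, and 30, 24.6 and 24.8 with sh72. The groups did not overlap. SLC7A11 fell 1.45-fold with sh68 (log2 -0.54 ± 0.0969, adjusted p = 5.23e-05) and rose 2.46-fold with sh72 (log2 1.30 ± 0.0838, adjusted p = 7.21e-12), a difference of 1.83 ± 0.0871 between the shRNAs. Its antisense neighbour SLC7A11-AS1 had at most 24 reads in a library. SLC6A9, a glycine transporter, was low at 2.23, 1.77 and 1.98 CPM in shSCR, 1.23, 0.912 and 1.42 with sh68, and 2.83, 3.22 and 2.59 with sh72. It fell with sh68 (-0.75 ± 0.192, adjusted p = 0.00195) and rose with sh72 (0.53 ± 0.166, adjusted p = 0.0103). CCDC24, whose exons overlap those of SLC6A9 on the other strand, was -0.26 with sh68 and fell by 0.68 with sh72. It was 2.91 CPM in shSCR, above SLC6A9 at a mean of 1.99. With the strand setting unknown, the reads of SLC6A9 are therefore uncertain.

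SLC7A5, the leucine exchanger LAT1, was 255, 250 and 225 CPM in shSCR, 147, 151 and 139 with sh68, and 242, 213 and 198 with sh72. The sh68 libraries were all below control and the sh72 libraries overlapped it. SLC7A5 fell 1.67-fold with sh68 (log2 -0.74 ± 0.0568, adjusted p = 9.78e-11). Its -0.16 ± 0.056 with sh72 (adjusted p = 0.0193) missed the threshold without shSCR replicate 1 or 2 or sh72 replicate 2 or 3, at -0.13 to -0.08. SLC3A2, the heavy chain that SLC7A5 and SLC7A11 both need at the membrane, was 138 ± 7.56, 137 ± 2.91 and 134 ± 10.6 CPM, with log2 fold changes of -0.01 ± 0.049 and -0.04 ± 0.0492.

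The remaining transporters of neutral and cationic amino acids moved less than SLC7A11, SLC6A9 and, with sh68, SLC7A5. SLC1A4 rose by 0.39 ± 0.0408 with sh68 and 0.37 ± 0.0409 with sh72, with a difference of -0.02 ± 0.0403 between them, and SLC38A2 rose by 0.29 ± 0.0442 and 0.20 ± 0.0443. The cationic transporter SLC7A1 rose by 0.15 ± 0.0387 and 0.18 ± 0.0387. The glutamine transporter SLC1A5 fell with sh68 (-0.20 ± 0.0488) and was 0.00 ± 0.0486 with sh72. SLC38A1, another glutamine transporter, was 924, 966 and 942 CPM in shSCR, 994, 1011 and 1006 with sh68, and 771, 727 and 757 with sh72. The groups did not overlap. It fell with sh72 (-0.33 ± 0.0353, adjusted p = 3.82e-08), while its 0.09 ± 0.0352 with sh68 (adjusted p = 0.0365) missed the threshold without shSCR replicate 1 or 3 or sh68 replicate 2 or 3, at 0.08 to 0.10.

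**Figure D3:**
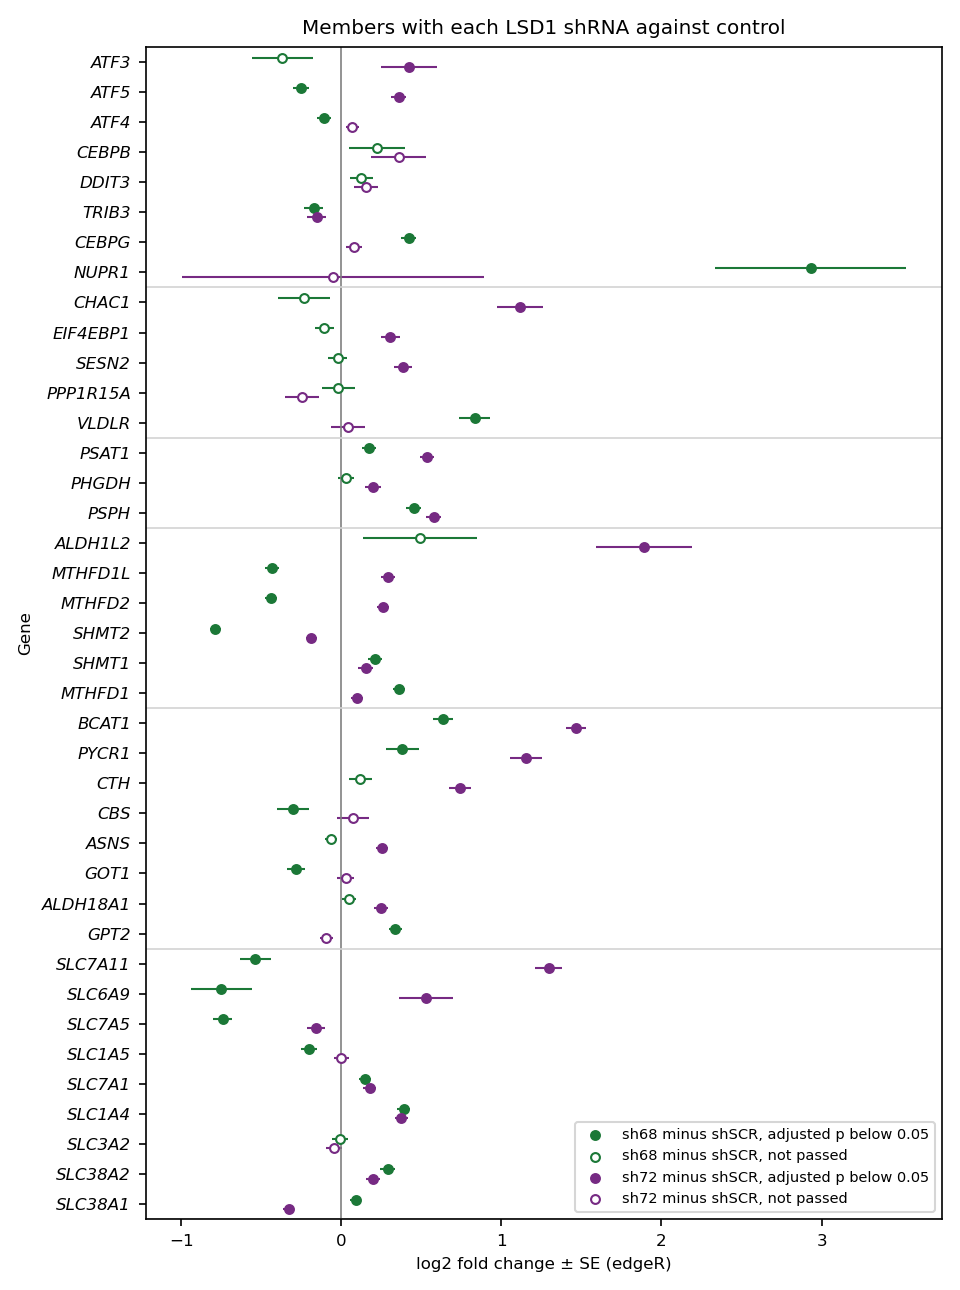
Log2 fold change ± SE of each tested gene with sh68 (green) and sh72 (purple) against shSCR, grouped by role, with filled points for an adjusted p below 0.05 in edgeR. The purple points lie mostly to the right of 0, while the green points lie on both sides, and SLC7A11, SLC6A9, MTHFD2, MTHFD1L and ATF5 have filled points on opposite sides.

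Set directly against each other, sh72 was higher than sh68 for 24 of the 39 genes and lower for 6, against 27.2% and 29.0% of all tested genes, or 56.2% in either direction. The median difference was 0.20 on the log2 scale, against -0.01 for all tested genes. By role the count was 7 of 8 for the other amino acid enzymes, 3 of 3 for serine synthesis, 4 of 6 for one-carbon enzymes, 3 of 5 for stress outputs, 4 of 9 for transporters and 3 of 8 for regulators. In 23 genes all sh72 libraries lay above all sh68 libraries and in 6 all lay below, where 60.7% of all tested genes were separated in one direction or the other. The 6 that were lower with sh72 were CEBPG, NUPR1, VLDLR, MTHFD1, GPT2 and SLC38A1. PPP1R15A joined them without sh68 replicate 1 (-0.30) or sh72 replicate 1 (-0.38), and SLC38A2 without sh68 replicate 2 (-0.14).

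On the mean of both shRNAs, 20 of the 39 genes were higher and 7 lower than control, against 24.9% and 27.5% of all tested genes, or 52.3% in either direction. The 7 became 3 without shSCR replicate 1 and 4 without shSCR replicate 2, sh68 replicate 1 or 3, or sh72 replicate 3. When the 6 LSD1 shRNA libraries were treated as 1 group, so that the difference between shRNAs counted as spread, 8 of the 39 rose and 0 fell. In that fit 1857 of all 15725 tested genes rose and 1724 fell. The 8 were BCAT1, PYCR1, PSAT1, PSPH, SHMT1, SLC1A4, SLC7A1 and SLC38A2.

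The genes with the ATF4 core upstream of an annotated start were not tested as a set. With sh72, 5 of these 8 rose and 0 fell, and 13 of the other 23 tested genes with an upstream sequence rose and 3 fell, where 24.7% and 26.3% of all tested genes did. With sh68, 2 of the 8 rose and 3 fell, and 8 of the 23 rose and 7 fell, against 27.4% and 28.1% of all tested genes. Between the shRNAs, 7 of the 8 were higher with sh72 and 1 lower, against 11 and 3 of the 23, and 27.2% and 29.0% of all tested genes. The 8 genes without an available upstream sequence gave similar counts. Of these, 5 rose and 1 fell with sh72, and 4 rose and 2 fell with sh68. Between the shRNAs, 6 of them were higher with sh72 and 2 lower. BCAT1, whose core lies closest to a start after that of CEBPG, had 0.64 and 1.47, CEBPG 0.42 and 0.08, and SLC1A5 -0.20 and 0.00 with sh68 and sh72.

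Per length, as TPM, the library-scaled level per base of annotated exon, the control level ranged widely. SHMT2 was the most abundant at 834 ± 21.2, followed by ATF4 at 434 ± 14.7, SLC38A1 at 346 ± 7.32, ATF5 at 285 ± 13.1 and ASNS at 249 ± 0.709. SLC1A5, at 231 ± 10.5, and MTHFD2, at 206 ± 3.91, came next. SLC38A2 (186 ± 8.68), PHGDH (184 ± 7.16), SLC7A5 (181 ± 10.3) and SLC3A2 (178 ± 8.37) lay within their spread of each other. At the low end were SLC6A9 at 1.58 ± 0.185, ALDH1L2 at 0.147 ± 0.012 and NUPR1 at 0.0319 ± 0.0394. NUPR1 and ALDH1L2, with the largest fold changes, were thus among the scarcest of these mRNAs, while SHMT2 was the most abundant and fell with both shRNAs. Its smaller fall, with sh72, carries the uncertainty about overlapping exons given above.

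Genes around the pathway, taken from 5 further lists, were more evenly divided with sh72. Of 97 tested genes in all, 32 rose and 32 fell with sh68, which is 33.0% each, against 27.4% and 28.1% of all tested genes. With sh72, 33 rose and 29 fell, which is 34.0% and 29.9%, against 24.7% and 26.3%. These all-gene shares apply to each list that follows. Among 19 genes of eIF2 phosphorylation and its reversal, 2 rose and 10 fell with sh68, and 6 rose and 7 fell with sh72. EIF2AK3, the kinase PERK that senses unfolded protein, was 48, 50 and 51.2 CPM in shSCR, 96.2, 90.2 and 94.3 with sh68, and 54.1, 53.5 and 56.8 with sh72, a rise of 0.91 ± 0.0451 and 0.14 ± 0.0464. The rise with sh72 missed the threshold without shSCR replicate 1, at 0.13. EIF2AK2, the kinase PKR that senses double-stranded RNA, fell by 0.95 with sh68 and 0.41 with sh72. BTRC, a subunit of the ligase that marks ATF4 for degradation, fell by 0.74 with sh72 and was -0.18 ± 0.0842 with sh68.

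Among 23 genes of the folate and methionine cycles, 10 rose and 5 fell with sh68, and 7 rose and 6 fell with sh72. SFXN1, a carrier that brings serine into mitochondria, was 235, 239 and 242 CPM in shSCR, 195, 205 and 210 with sh68, and 91.1, 89.6 and 94.9 with sh72. It fell 2.6-fold with sh72 (log2 -1.38 ± 0.0391, adjusted p = 2.13e-18) and 1.17-fold with sh68 (log2 -0.23 ± 0.0374), with no overlap of the groups. SLC25A32, the mitochondrial folate carrier, rose by 0.28 and 0.37, and AHCY, which clears S-adenosylhomocysteine, by 0.12 and 0.39. For AHCY the rise with sh68 missed the threshold without shSCR replicate 3 (0.09) or sh68 replicate 1 or 2 (0.12 each).

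Of 12 further amino acid enzymes, 7 rose and 3 fell with sh68, and 6 rose and 4 fell with sh72. GLUD1, glutamate dehydrogenase, was 117, 122 and 114 CPM in shSCR, 127, 128 and 131 with sh68, and 41.3, 40.6 and 40.2 with sh72. It fell 2.89-fold with sh72 (log2 -1.53 ± 0.0421, adjusted p = 1.1e-18) and rose by 0.13 ± 0.0388 with sh68. BCAT2, the mitochondrial partner of BCAT1, rose by 0.69 with sh72 and was 0.03 with sh68, and GPT, the cytosolic alanine aminotransferase, rose by 1.03 and 0.79.

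Of 13 further transporters, 5 rose and 2 fell with sh68, and 6 rose and 4 fell with sh72. SLC7A8, SLC7A7 and SLC38A5, carriers of neutral and cationic amino acids, rose with both shRNAs, by 0.76, 0.76 and 0.31 with sh68 and by 1.27, 0.66 and 1.05 with sh72. Of 30 genes of amino acid sensing by mTORC1, 8 rose and 12 fell with sh68, and 8 rose and 8 fell with sh72. DDIT4, an inhibitor of mTORC1 and a stress target, was 158, 120 and 115 CPM in shSCR, 44.7, 45.7 and 41.1 with sh68, and 68.8, 64.9 and 74.7 with sh72. It fell 3.0-fold and 1.89-fold, with every LSD1 shRNA library below the controls. SESN3, a relative of SESN2, rose by 0.90 and 0.75, and RRAGD, a Rag GTPase, rose by 0.82 with sh68 and was 0.20 ± 0.0885 with sh72. RRAGD passed with sh72 without shSCR replicate 2 (0.25), sh68 replicate 2 (0.22) or sh72 replicate 1 (0.25).

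**Figure D4:**
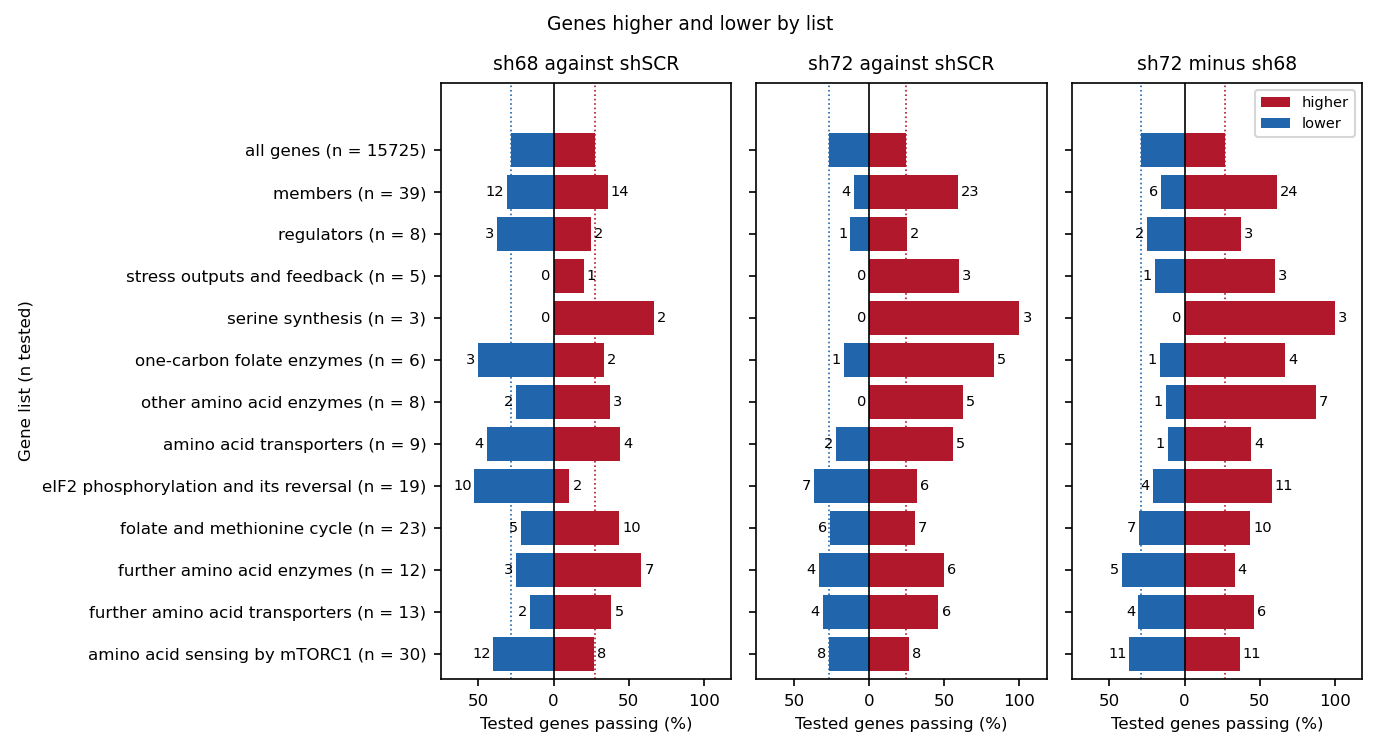
Share of tested genes higher (red, right) and lower (blue, left) in edgeR for all genes, the 39 members, their 6 roles and 5 pathway lists, with the counts beside the bars and dotted lines at the shares over all genes. With sh72, 23 members are higher and 4 lower, whereas the pathway lists have bars of more similar length on both sides.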

How the data were processed

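RNA-seq of poly(A) RNA covered 9 libraries of OCI-Ly1 cells. The values the authors deposited are counts, whole reads per gene symbol and library, not normalized. Per the submitters' processing notes, CASAVA 1.8.2, STAR 2.5.2, featureCounts 1.5.2 and hg38 were used. Settings, annotation and strandedness were not given in the sources used here. No label pairs sh68 and sh72 with the numbered titles, so the table's names are used.

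Counts were filtered with filterByExpr, scaled by TMM and fitted with edgeR 4.0.16 in R 4.3.3, as 1 quasi-likelihood model with a term per shRNA over all 9 libraries. P-values were adjusted by Benjamini-Hochberg over 15725 genes, with a threshold of 0.05. SE is the absolute log2 fold change over the square root of F. The fit was tested on simulated data. It missed the first recovery criterion because of changed genes with few reads, and the criterion was then replaced by one for genes of higher level, with the fit unchanged. Levels per length used GENCODE 29 exons, and upstream sequences came from RefSeq. Depth of 29506767 to 35270849 reads per library limits precision mainly for genes with few reads.

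The members and lists were chosen with earlier results of these data known. Within each role the 3 genes with the largest change in either single comparison were described in full, with ATF4, KDM1A and members moving in opposite directions. In each pathway list the 3 largest on the mean were named. Further members are given more briefly. PRODH and SLC7A2 were not matched in the table. The fit was repeated with library size alone, RLE scaling, no filter, at least 1 CPM in 3 libraries, the replicate block, only the groups compared, limma-voom (limma 3.58.1), DESeq2 1.42.0, the 6 LSD1 shRNA libraries as 1 group, and each library left out.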

Additional observations from a re-analysis of the deposited data

Results flagged for a closer look

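The 6 genes called in opposite directions by the LSD1 shRNAs also differed in the direct comparison of sh72 with sh68 in edgeR. The difference, sh72 minus sh68 on the log2 scale, was 1.83 for SLC7A11, 1.28 for SLC6A9, 0.72 for MTHFD1L, 0.70 for MTHFD2, 0.61 for ATF5 and -0.42 for SLC38A1. In each of the 6, the 3 sh72 libraries and the 3 sh68 libraries did not overlap. With the strand setting unknown, reads of ATF5, MTHFD2 and SLC6A9 are uncertain where their exons overlap those of genes on the other strand. Both shRNAs target KDM1A, which was 24.4 and 20.9 CPM, and why the genes differ between them was not tested. Opposite calls were made for 7.83% of all tested genes.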

How the results depend on the processing

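No gene described here reversed its direction among the called values under any alternative run. The number of members lower with sh72, 4 in the reported fit, was 2 with library size alone. The number lower on the mean, 7 in the reported fit, was 4 with library size alone, with at least 1 CPM in 3 libraries and with DESeq2. With the 6 LSD1 shRNA libraries as 1 group, 8 of 39 members were higher and 0 lower on the mean. The counts were 1857 and 1724 of all 15725 tested genes, and 12 and 9 of 97 tested genes of the pathway lists. By construction the difference between shRNAs is then part of the spread. For the other moves the cause was not tested. Leaving out 1 library at a time gave 12 to 15 members higher and 9 to 12 lower with sh68, 21 to 24 higher and 2 to 5 lower with sh72, 16 to 22 higher and 3 to 9 lower on the mean, and 22 to 24 higher and 5 to 7 lower for sh72 minus sh68. Over all alternatives, 5 of 39 members changed their call with sh68, 10 with sh72, 25 on the mean and 4 for sh72 minus sh68. These counts are not over the same alternatives, since the fit with 1 LSD1 shRNA group was run on the mean alone. Some of the 25, SLC7A11 and SHMT2 among them, changed only in that fit.

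With library size alone, ATF4 with sh68 (-0.08) and SLC7A5 and TRIB3 with sh72 (both -0.12) missed the threshold, while DDIT3 (0.19), CEBPG (0.12) and ATF4 (0.11) passed with sh72. DESeq2 ended the calls of ATF4 with sh68 and of ATF3 and TRIB3 with sh72. Whether the replicate numbers pair the libraries was not settled. Same-numbered libraries had residuals correlated at a Pearson r of -0.0466 to 0.145, and other pairs at -0.158 to 0.081. Of the 9 libraries, 6 were closest to their own number. With the replicate number as a block, 14 members rose and 12 fell with sh68, 23 and 6 with sh72, 22 and 7 on the mean, and 24 and 7 for sh72 minus sh68. NUPR1 and ALDH1L2 rest on few reads: neither was tested with at least 1 CPM in 3 libraries, nor NUPR1 without sh68 replicate 3.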
